A study of Mus musculus with 6 samples.

Results

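Astrocytes are the glial cells that take up ions, water and neurotransmitters around synapses and vessels, and their transcripts can be followed in a sample of other brain cells by genes that astrocytes express strongly. The 32 genes described here are such markers, chosen by symbol from a list of astrocyte genes that leaves out the glutamate and GABA transporters, and all 32 were found among the 16516 genes of the table. They were measured by RNA-seq in CD11b+ cells, a fraction that holds mainly microglia, the resident macrophages of the brain. Astrocytes do not carry CD11b, the surface protein used for the sort, and their transcripts were at low levels here beside those of myeloid cells. Several of the markers are also transcribed by other cells of the brain, among them glutamine synthetase, which is known from activated macrophages as well.

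The 4LPS group was 3 samples from C57BL6/J mice that had received lipopolysaccharide (LPS, the endotoxin of Gram-negative bacteria) intraperitoneally at 500 µg/kg on each of 4 days. The NS group was 3 samples from C57BL6/J mice given normal saline in the same way. The mice were males aged 8 to 10 weeks, the cortices were taken on day 7 after the first injection, and each RNA sample pooled the cells of 2 mice. The 4LPS libraries held 15164115 to 15462402 counts and the NS libraries 15158342 to 15746610 counts.

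The sample titles named CD11b+ cells, and microglia genes were at high levels in every sample. In a list of 20 microglia genes the summed level was 76626 to 78815 CPM (the count scaled to a library of fixed size, with a factor for library composition) in 4LPS samples and 73947 to 77305 CPM in NS samples. Libraries of one group were not alike in their content of choroid plexus, the epithelium that makes cerebrospinal fluid. The sum of 10 choroid plexus genes was 3399, 18.01 and 881 CPM in 4LPS replicates 1 to 3, against 10246, 8570 and 1079 CPM in NS replicates 1 to 3. NS replicate 3 was far below the other NS samples in this tissue, and the 4LPS samples differed widely among themselves, with replicate 2 lowest.

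About as many astrocyte markers fell in CD11b+ cells of 4LPS mice as did not pass, and none rose. Of the 32 markers, all of which passed the filter on low counts, 17 were lower, 0 were higher and 15 did not pass at an adjusted p under 0.05 (edgeR, quasi-likelihood test, adjusted over the 13151 genes tested). Of all genes tested, 6.43% were lower and 9.95% higher. At an unadjusted p under 0.05, 24 markers were lower, against 16.1% of all genes, and 0 were higher, against 17.6% of all genes, and DESeq2 and limma also called 0 of them higher. In 21 of the 32 markers every 4LPS sample was below every NS sample, a pattern seen in 17.5% of all genes tested, and in 0 was every 4LPS sample above every NS sample, against 19.9% of all genes. The median log2 fold change of 4LPS over NS was -0.89 over the markers and -0.02 over all genes tested. In such bulk samples, fewer astrocytes carried into the sort, less RNA per astrocyte and fewer marker transcripts from other cells cannot be told apart. The number of markers that were lower was 12 without 4LPS replicate 1, 11 without 4LPS replicate 2 and 8 without 4LPS replicate 3. When NS replicates 1, 2 or 3 were left out it was 13, 7 and 17. Over all genes, 557, 363 and 436 were lower without 4LPS replicates 1, 2 or 3. Without NS replicates 1, 2 or 3, 369, 551 and 1215 were lower. These fits tested 13266 to 13407 genes, and with all samples 845 of 13151 were lower.

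**Figure D1:**
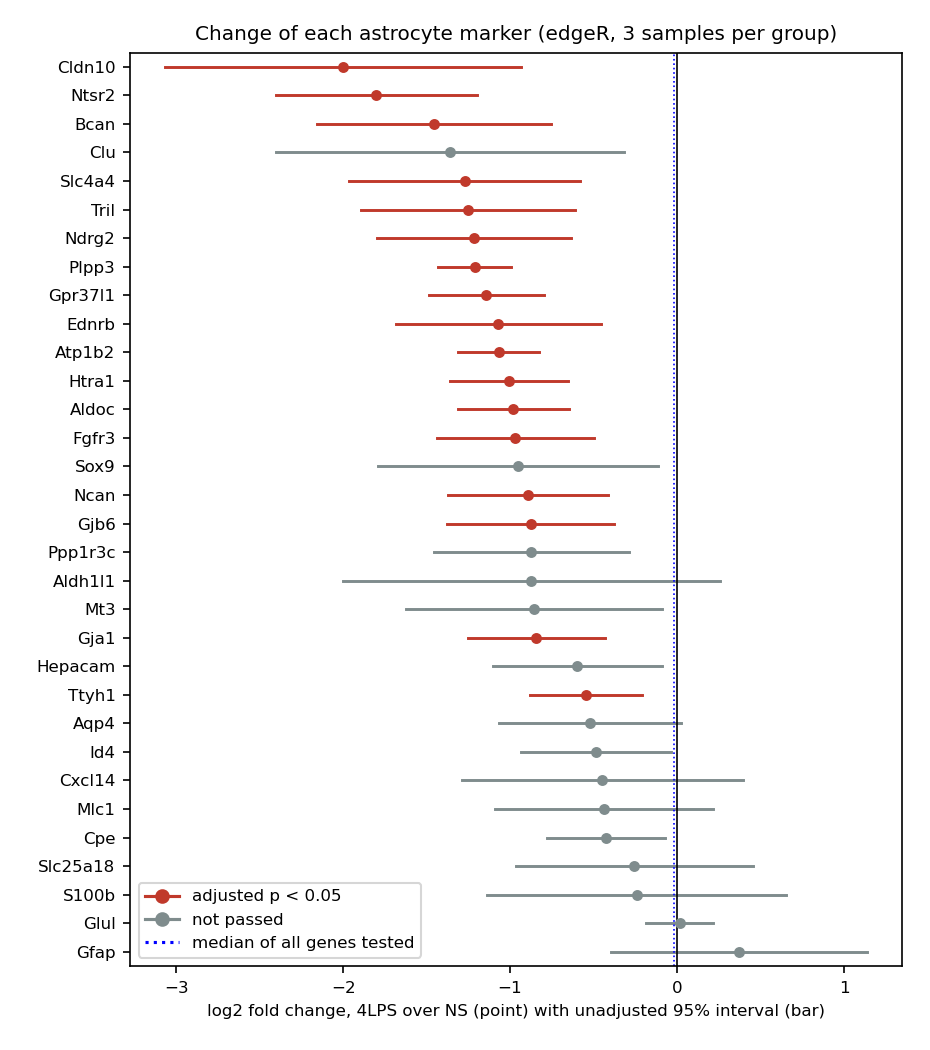
Log2 fold change of 4LPS over NS (x axis) for each of the 32 astrocyte markers (rows), with points for the edgeR estimate and bars for the unadjusted 95% interval from 3 samples per group. The 17 markers that passed lie to the left of 0, 24 intervals lie wholly below 0, and Gfap and Glul are the 2 markers with an estimate above 0.

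The receptors among the markers all fell. Gpr37l1, an orphan G protein-coupled receptor of astrocytes, had 8.16, 9.79 and 7.59 CPM in 4LPS replicates 1 to 3, against 15.7, 20.7 and 20.02 CPM in NS replicates 1 to 3. This is a 2.21-fold lower level (log2 fold change -1.14, standard error 0.15, adjusted p = 0.00215), and the groups did not overlap. Ntsr2, a receptor for the peptide neurotensin, was scarce, with 12, 16 and 11 counts in 4LPS replicates 1 to 3 and 44, 53 and 51 counts in NS replicates 1 to 3. Its level was 0.881 ± 0.182 CPM in 4LPS and 3.09 ± 0.289 CPM in NS (SD, n = 3 samples per group), so the groups stood well apart (log2 fold change -1.80, standard error 0.26, adjusted p = 0.00359). Both receptors passed in every alternative setting in which they were tested.

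Fgfr3, a receptor for fibroblast growth factors, had 3.64, 4.76 and 5.70 CPM in 4LPS samples, against 7.62, 10.4 and 9.55 CPM in NS samples (log2 fold change -0.97, adjusted p = 0.0172). Tril encodes an accessory protein of Toll-like receptor signalling to LPS. Its level was 2.29, 3.47 and 4.48 CPM in 4LPS samples and 6.04, 8.86 and 9.48 CPM in NS samples, which is 2.38-fold lower (adjusted p = 0.0207). Ednrb, a receptor for endothelins, had 9.17, 4.49 and 4.61 CPM in 4LPS samples, and replicate 1 was nearer to the NS samples than to the other 4LPS samples. The NS samples had 12.97, 13.45 and 11.96 CPM (log2 fold change -1.07, adjusted p = 0.0317). Fgfr3 and Tril lost the threshold when 4LPS replicate 2 was left out (adjusted p = 0.0593 and 0.0676) or NS replicate 2 (0.0589 and 0.0641). Ednrb lost it when 4LPS replicates 2 or 3 were left out (0.0996 and 0.107) or NS replicates 1 or 2 (0.0963 and 0.0865).

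The promoters of 3 markers that fell together are printed to show the letters at their start sites, beside that of Gfap, a marker that did not pass and was picked after its values were seen. They run from 250 bases before to 50 after the start, are taken from RefSeq on GRCm38.p6 and are written 5′ to 3′ on the strand of the gene. Capitals mark the short site of nuclear factor I (TTGGC or GCCAA), the SOX core (ACAAT or ATTGT), the STAT site (TTCNNNGAA) and the TATA box (TATAAA or TTTATA), searched on both strands. No matches overlapped in these windows.
Plpp3 (chr4:105157097-105157396, + strand): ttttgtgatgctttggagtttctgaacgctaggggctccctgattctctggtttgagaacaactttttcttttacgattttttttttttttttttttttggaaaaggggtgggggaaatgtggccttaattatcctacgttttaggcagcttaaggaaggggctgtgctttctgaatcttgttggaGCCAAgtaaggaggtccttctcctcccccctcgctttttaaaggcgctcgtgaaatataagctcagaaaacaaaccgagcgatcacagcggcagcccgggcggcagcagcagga
Gpr37l1 (chr1:135167632-135167931, - strand): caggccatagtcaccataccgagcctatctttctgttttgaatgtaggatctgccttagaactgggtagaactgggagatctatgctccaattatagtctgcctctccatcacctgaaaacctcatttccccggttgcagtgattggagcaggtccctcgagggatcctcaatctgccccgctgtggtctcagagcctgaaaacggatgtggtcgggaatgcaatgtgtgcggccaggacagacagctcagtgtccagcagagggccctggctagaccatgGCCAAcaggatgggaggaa
Ntsr2 (chr12:16653220-16653519, + strand): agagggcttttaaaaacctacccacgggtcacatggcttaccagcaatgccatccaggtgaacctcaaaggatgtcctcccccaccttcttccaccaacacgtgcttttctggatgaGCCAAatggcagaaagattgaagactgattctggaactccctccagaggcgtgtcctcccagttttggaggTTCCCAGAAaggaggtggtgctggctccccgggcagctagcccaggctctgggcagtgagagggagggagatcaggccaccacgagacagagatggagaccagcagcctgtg
Gfap (chr11:102897151-102897450, - strand): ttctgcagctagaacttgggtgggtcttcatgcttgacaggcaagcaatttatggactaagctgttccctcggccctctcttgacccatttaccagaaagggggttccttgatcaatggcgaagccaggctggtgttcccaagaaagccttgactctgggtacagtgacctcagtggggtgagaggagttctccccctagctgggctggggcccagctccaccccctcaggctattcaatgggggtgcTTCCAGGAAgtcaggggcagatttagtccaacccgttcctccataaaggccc
The windows of Plpp3, Gpr37l1 and Ntsr2 each held 1 short site of nuclear factor I, and those of Ntsr2 and Gfap each held 1 STAT site. For 27 of the markers the RefSeq set held 33 promoters, of which 18 (54.5%) had the short site of nuclear factor I, against 46.7% of all 32851 promoters. A STAT site was in 4 of the 33 (12.1%), against 8.30% of all, a SOX core in 4 (12.1%), against 31.0%, and a TATA box in 3 (9.09%), against 13.6%. The median GC content was 58.7% in the promoters of the markers and 52.7% in all promoters. These are counts of letters and not of bound sites.

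Junction proteins fell as well, all 3 of them. Gja1 and Gjb6 encode connexins, the channels that join astrocytes into a network. Gja1 (GRCm39, chr10:56253241-56278609) had 15.7, 21.5 and 13.4 CPM in 4LPS replicates 1 to 3, against 27.7, 28.2 and 34.7 CPM in NS replicates 1 to 3. The 4LPS samples were spread more widely in proportion than the NS samples, and the groups did not overlap (log2 fold change -0.84, standard error 0.18, adjusted p = 0.0174). Gjb6 had 2.29, 3.26 and 2.24 CPM in 4LPS samples, against 4.66, 4.46 and 5.21 CPM in NS samples (log2 fold change -0.88, adjusted p = 0.0309). Cldn10, a claudin of tight junctions, had 5 counts in each 4LPS sample and 15, 34 and 17 counts in NS replicates 1 to 3, the lowest counts of any marker. Its log2 fold change of -2.0 was the largest decrease among the markers and had the second widest interval, from -3.07 to -0.93 (adjusted p = 0.0245). Gja1 was past the threshold neither without 4LPS replicate 1 nor without 4LPS replicate 3 (adjusted p = 0.0540 and 0.0508). Cldn10 did not pass without 4LPS replicates 1, 2 or 3 (0.0724, 0.0815 and 0.0804) or NS replicate 2 (0.0635). Gjb6 passed only when 4LPS replicate 2 was the sample left out, with adjusted p-values up to 0.0969 otherwise.

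Among 6 membrane proteins of ion and water transport and cell contact, 3 fell. Atp1b2, the glial β subunit of the sodium pump, had 20.1, 17.3 and 19.7 CPM in 4LPS samples, against 42.5, 42.2 and 34.9 CPM in NS samples. The groups lay far apart, and the level was 2.10-fold lower (log2 fold change -1.07, standard error 0.10, adjusted p = 4.99e-04). Slc4a4, a sodium bicarbonate cotransporter, had 1.89, 4.62 and 2.71 CPM in 4LPS samples and 6.86, 8.05 and 7.38 CPM in NS samples (log2 fold change -1.27, adjusted p = 0.0264). Ttyh1, a membrane protein of the tweety family, had the smallest change among the markers that passed (log2 fold change -0.54, adjusted p = 0.0405), and it did not pass with any 1 of the 6 samples left out (adjusted p = 0.0566 to 0.113) or with a length correction (0.0560). Slc4a4 did not pass without 4LPS replicates 1 or 3 (0.0515 and 0.0933) or NS replicates 1 or 2 (0.0685 and 0.0758).

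The other 3 membrane proteins did not pass. Aqp4, the water channel of the end feet by which astrocytes cover vessels, had 8.63, 9.45 and 6.51 CPM in 4LPS replicates 1 to 3, against 11.5, 8.42 and 15.4 CPM in NS replicates 1 to 3. Its groups overlapped, and its log2 fold change was -0.52 with an interval from -1.07 to 0.02 (adjusted p = 0.162). Mlc1 is a membrane protein of astrocytes (log2 fold change -0.44, adjusted p = 0.311), and Hepacam is the adhesion molecule that binds it (-0.60, adjusted p = 0.100). In both, NS replicate 3 had the highest level of the 6 samples, at 21.4 CPM for Mlc1 and 12.6 CPM for Hepacam, as it did for Aqp4. Hepacam passed without NS replicate 1 (-0.80, adjusted p = 0.0327).

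**Figure D2:**
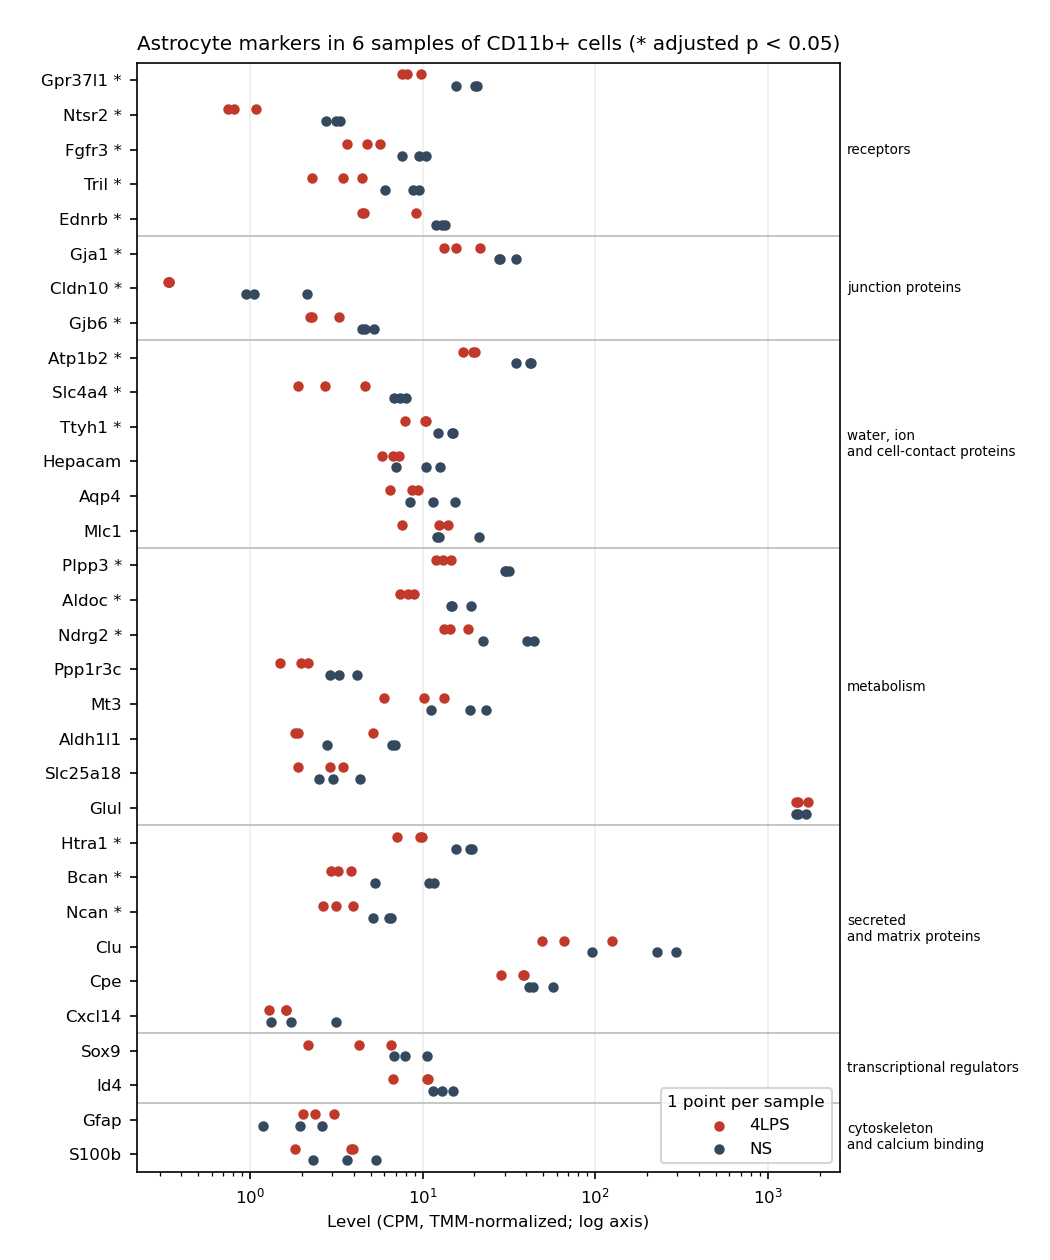
Level of each astrocyte marker in CPM (log axis) in each sample of CD11b+ cells, with 4LPS points above NS points in each row and markers grouped by role. An asterisk marks an adjusted p under 0.05 from edgeR, and the 17 markers so marked have no overlap between groups, while the points of Gfap, S100b, Aqp4, Aldh1l1 and Glul overlap.

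Among 8 genes of metabolism, 3 fell. Plpp3, which dephosphorylates signalling lipids at the cell surface, had the smallest adjusted p of the markers. The gene spans chr4:105014421-105089964 on GRCm39, with 6 exons in the canonical transcript. Its level was 12.01, 14.55 and 13.2 CPM in 4LPS replicates 1 to 3, against 29.9, 31.6 and 30.6 CPM in NS replicates 1 to 3. Replicates of a group were close together, and the level was 2.32-fold lower (log2 fold change -1.21, standard error 0.09, adjusted p = 1.77e-04). Aldoc, the brain form of the glycolytic enzyme aldolase, had 8.23, 8.97 and 7.39 CPM in 4LPS samples and 14.6, 19.2 and 14.8 CPM in NS samples (log2 fold change -0.98, standard error 0.14, adjusted p = 0.00383).

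Ndrg2, a gene that is strongly transcribed in astrocytes and that is grouped here with metabolism, had 18.3, 13.3 and 14.4 CPM in 4LPS samples, against 44.1, 40.6 and 22.4 CPM in NS samples (log2 fold change -1.22, adjusted p = 0.0159). NS replicate 3 was nearer to the 4LPS samples than to the other NS samples. Ndrg2 lost the threshold when 4LPS replicates 2 or 3 were left out (adjusted p = 0.0663 and 0.0710) or NS replicates 1 or 2 (0.0587 and 0.0541). Ppp1r3c, which directs a phosphatase to glycogen, had no overlap between groups and lay just outside the threshold (log2 fold change -0.87, adjusted p = 0.0531). It passed in 5 alternatives, which were upper-quartile factors (adjusted p = 0.0470), no composition factor (0.0331) and the 3 fits on log2 FPKM (0.0345 to 0.0467). Mt3, the metallothionein of brain, had 13.3, 10.2 and 5.97 CPM in 4LPS samples, against 23.4, 18.8 and 11.2 CPM in NS samples, with overlap and a log2 fold change of -0.86 (adjusted p = 0.116), and passed without NS replicate 3 (-1.10, adjusted p = 0.0290), with DESeq2 (0.0251) and with the length correction (0.0415). The log2 fold change of Slc25a18, a mitochondrial glutamate carrier, was -0.26 (adjusted p = 0.593).

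Glul, which encodes glutamine synthetase, was by far the most abundant marker and did not pass. In FPKM, a unit that corrects for gene length and library size, it had 596 FPKM in 4LPS and 630 FPKM in NS (means of 3 samples), while the median of the markers over the 6 samples was 2.72 FPKM and 12 of them exceeded 5 FPKM. Its level was 1503, 1713 and 1451 CPM in 4LPS replicates 1 to 3, against 1452, 1674 and 1493 CPM in NS replicates 1 to 3. The groups lay over each other, and the log2 fold change was 0.02 with an interval from -0.18 to 0.22 (adjusted p = 0.920). Its sign changed with the scaling, since the log2 fold change was -0.08 without a composition factor and -0.01 with upper-quartile factors. Because of Glul, the summed level of the 32 markers, at 1870, 2008 and 1712 CPM in 4LPS samples and 2140, 2319 and 2005 CPM in NS samples, overlapped between the groups. Without Glul, Clu and Mt3, the 3 most abundant markers per length, the sum was 228, 235 and 189 CPM in 4LPS samples, against 372, 398 and 405 CPM in NS samples. In FPKM, Csf1r, a growth factor receptor of microglia, stood at 3623 in 4LPS and 3579 in NS, far above every marker.

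Secreted and matrix proteins were lower in 3 of 6 cases. Htra1, a secreted serine protease, had 7.15, 9.99 and 9.63 CPM in 4LPS samples, against 15.6, 19.4 and 18.7 CPM in NS samples, which is 2.01-fold lower (log2 fold change -1.01, standard error 0.15, adjusted p = 0.00457). Bcan and Ncan encode brevican and neurocan, chondroitin sulfate proteoglycans of the brain matrix. Bcan had 2.97, 3.88 and 3.26 CPM in 4LPS samples and 5.29, 11.6 and 10.8 CPM in NS samples, where replicate 1 was low (log2 fold change -1.46, adjusted p = 0.0165). Ncan had 3.17, 3.94 and 2.64 CPM in 4LPS samples and 5.16, 6.60 and 6.38 CPM in NS samples (log2 fold change -0.89, adjusted p = 0.0246). Neither proteoglycan passed without 4LPS replicate 1 (adjusted p = 0.0546 for Bcan and 0.0719 for Ncan), 4LPS replicate 3 (0.0651 and 0.0817) or NS replicate 2 (0.0538 and 0.0738). Bcan also missed the threshold with all samples kept under limma-voom (-1.38, adjusted p = 0.0530). Cpe, a carboxypeptidase that processes peptide hormones (log2 fold change -0.43, adjusted p = 0.0964), and Cxcl14, a chemokine (-0.45, adjusted p = 0.418), did not pass. With DESeq2, Cpe did (-0.42, adjusted p = 0.0297).

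Clu, which encodes the secreted chaperone clusterin, varied widely within groups. Its level was 126, 49.1 and 65.9 CPM in 4LPS replicates 1 to 3, against 293, 229 and 95.3 CPM in NS replicates 1 to 3. NS replicate 3 was below 4LPS replicate 1, and the log2 fold change was -1.36 with an interval from -2.40 to -0.32 (adjusted p = 0.0766). The 6 samples had the same order for Clu as for the choroid plexus genes, with NS replicates 1 and 2 highest, then 4LPS replicate 1, NS replicate 3 and 4LPS replicates 3 and 2. Among the markers this order, looked for after the values were seen, was shared by Clu and Aldh1l1, and among all genes tested by 1.79%. Aldh1l1, a folate enzyme and a defining gene of astrocytes, had 5.19, 1.84 and 1.90 CPM in 4LPS samples, against 6.92, 6.66 and 2.79 CPM in NS samples (log2 fold change -0.87, adjusted p = 0.244). A fit that added the summed choroid plexus level as a term was chosen after seeing the data. In it, the log2 fold changes of Clu and Aldh1l1 were -0.60 and -0.14 (adjusted p = 0.290 and 0.857). Smaller estimates could be foreseen for these 2, which were set apart for sharing the sample order of that level. The level also differed between the group means, so with 6 samples the fit cannot separate it from the treatment. Of the 17 markers that had passed, 13 were still lower. Ndrg2, Cldn10, Ednrb and Ttyh1 did not pass in that fit (0.0685, 0.107, 0.101 and 0.0825). Of all 13151 genes tested, 430 were lower with the choroid plexus term, against 845 without it. Without 4LPS replicate 1 or NS replicate 3, Clu passed (log2 fold change -1.84 and -1.70, adjusted p = 0.0449 and 0.0119).

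**Figure D3:**
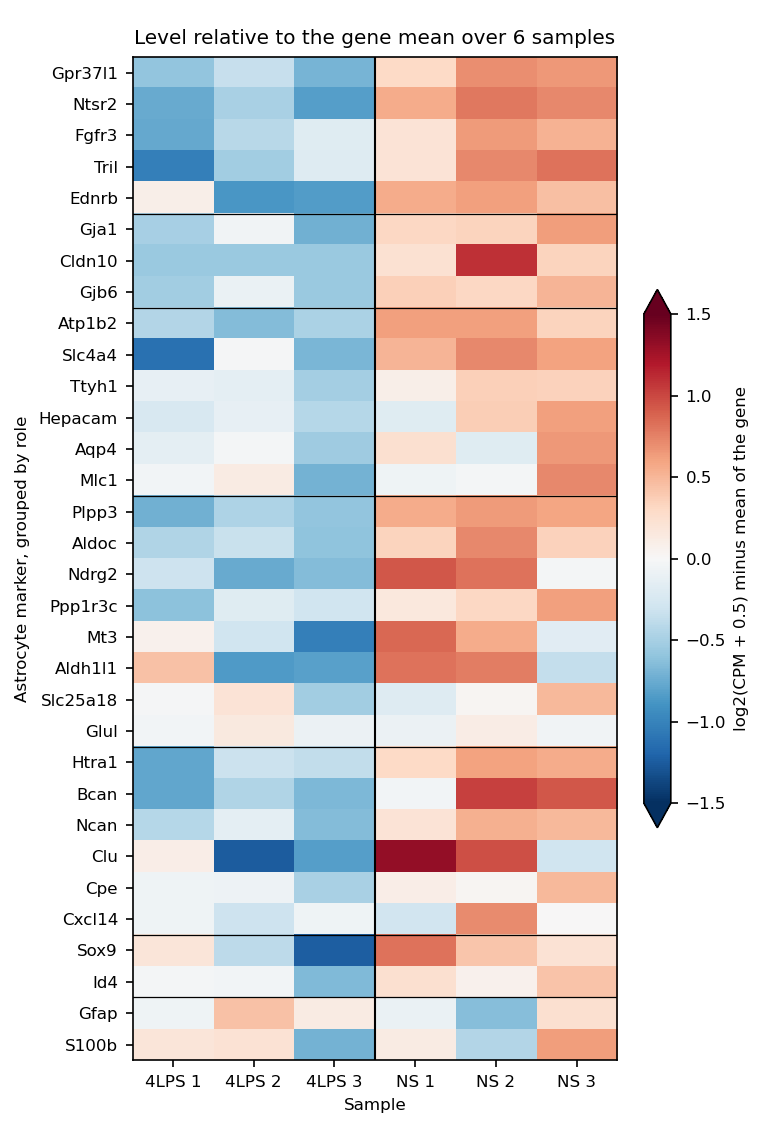
Level of each marker (rows, grouped by role) in each sample (columns), as log2(CPM + 0.5) minus the mean of the gene over the 6 samples, with red above and blue below that mean. Most rows are blue in 4LPS and red in NS, Clu and Aldh1l1 are high in NS replicates 1 and 2 and not in NS replicate 3, and the lowest level of a marker was in 4LPS replicate 3 for 17 of the 32.

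Transcriptional regulators gave estimates below 0 that did not pass. Sox9, a factor that specifies glia, had 6.61, 4.28 and 2.17 CPM in 4LPS replicates 1 to 3, against 10.6, 7.92 and 6.82 CPM in NS replicates 1 to 3. The groups did not overlap, but the spread within 4LPS was wide, and the log2 fold change was -0.95 (standard error 0.36, adjusted p = 0.111). It passed without 4LPS replicate 1 (-1.38, adjusted p = 0.0446) and with DESeq2 (-0.95, adjusted p = 0.0410). Id4, a helix-loop-helix regulator, had a smaller estimate (log2 fold change -0.48, adjusted p = 0.125).

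Gfap and S100b, the cytoskeletal and calcium-binding proteins by which astrocytes are most often stained, did not pass. Gfap (GRCm39, chr11:102778159-102791738) had 30, 45 and 35 counts in 4LPS replicates 1 to 3, against 31, 19 and 42 counts in NS replicates 1 to 3. Its level was 2.02, 3.06 and 2.37 CPM in 4LPS samples and 1.95, 1.19 and 2.60 CPM in NS samples. The groups overlapped, and the log2 fold change was 0.37 with an interval from -0.39 to 1.14 (adjusted p = 0.460). Set against other markers within a sample, log2 of Gfap over Aqp4 was -2.07, -1.62 and -1.44 in 4LPS samples and -2.54, -2.79 and -2.55 in NS samples. The ratio of Gfap to Gja1 was likewise higher in every 4LPS sample (-2.94, -2.80 and -2.48) than in every NS sample (-3.81, -4.53 and -3.72). Gja1 itself was lower in every 4LPS sample, so its ratio holds that fall and does not show a rise of Gfap. The estimate of Aqp4 was also below 0 (log2 fold change -0.52, adjusted p = 0.162), so the ratio to Aqp4 does not show such a rise either. For both ratios an exact two-sided permutation test gave p = 0.1, the smallest that 3 samples against 3 allow (0.2 when adjusted over the 5 ratios computed), and the ratios to Aldh1l1, S100b and Sox9 overlapped between groups. S100b had 3.84, 3.94 and 1.83 CPM in 4LPS samples, against 3.65, 2.33 and 5.39 CPM in NS samples (log2 fold change -0.24, adjusted p = 0.700), and its estimate was above 0 without 4LPS replicate 3 (0.05) or NS replicate 3 (0.10).

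Other astrocyte genes were lower more often than they were higher. Of 7 transporters of glutamate, GABA and related amino acids, 4 were lower, 0 were higher and 3 did not pass (edgeR, also 0 higher at an unadjusted p under 0.05, with DESeq2 and with limma-voom, while limma-voom called 3 of them lower). Slc1a2, the main glutamate transporter of astrocytes, had 14.8, 20.3 and 15.1 CPM in 4LPS samples, against 37.0, 60.5 and 47.5 CPM in NS samples (log2 fold change -1.53, adjusted p = 0.00197). The GABA transporter Slc6a11 was also lower (log2 fold change -1.63, adjusted p = 0.00579). So was Slc38a3, a glutamine transporter (-1.52, adjusted p = 0.0469), although its groups overlapped. Slc1a3, a glutamate transporter that was the most abundant of the 7, had 170.5 ± 8.09 CPM in 4LPS and 177 ± 4.85 CPM in NS (SD, n = 3 samples per group, log2 fold change -0.05, adjusted p = 0.480).

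In a wider list of 53 astrocyte genes, 45 passed the filter, 14 were lower, 2 were higher and 29 did not pass, with a median log2 fold change of -0.75. Mfge8, a secreted protein that bridges apoptotic cells to phagocytes, had 28.9 ± 0.867 CPM in 4LPS and 58.0 ± 6.0 CPM in NS (SD, n = 3 samples per group, log2 fold change -1.0, adjusted p = 2.53e-04). S1pr1, a receptor for sphingosine phosphate that endothelium also carries, was lower (-0.67, adjusted p = 0.00227), as were Fam107a (-1.16, adjusted p = 0.00499) and Nfib, a nuclear factor I protein (-0.76, adjusted p = 0.0107). The 2 that rose were Kcnj10, a potassium channel, and Sdc4, a cell surface proteoglycan. Kcnj10 had 54.9, 55.5 and 55.5 CPM in 4LPS samples, against 22.7, 25.9 and 34.5 CPM in NS samples (log2 fold change 1.0, adjusted p = 0.00301), and the change of Sdc4 was smaller (0.36, adjusted p = 0.0453). Kcnj16, a channel subunit that pairs with the product of Kcnj10, was lower (log2 fold change -0.90, adjusted p = 0.0275). Sparcl1, a secreted matrix protein and the most abundant of the list per length, did not pass (-0.60, adjusted p = 0.146).

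Genes known to rise in reactive astrocytes were looked at apart, since many of them are also transcribed by myeloid cells. Of the 11 genes described for any reactive state, 7 passed the filter and, against 9.95% of all genes tested, 2 of these (28.6%) were higher. They were Cp, the iron oxidase ceruloplasmin, at 101, 111 and 151 CPM in 4LPS samples, against 23.2, 22.7 and 45.4 CPM in NS samples (log2 fold change 1.99, adjusted p = 0.00325), and Cd44, an adhesion receptor of leukocytes as well (1.28, adjusted p = 0.0381). The log2 fold changes of Lcn2, a siderophore-binding protein, and of Vim, the intermediate filament vimentin, were 1.24 and 0.33 (adjusted p = 0.108 and 0.409). Serpina3n and Steap4, often used to mark reactive astrocytes, were at or below 0.809 CPM in every sample and did not pass the filter. Of 11 genes described for astrocytes after LPS, all tested, 4 were higher (36.4%), 1 was lower (9.09%) and 6 did not pass. Over all genes tested, 9.95% were higher and 6.43% lower. H2-D1, H2-T23, Fkbp5 and Psmb8 were higher and Amigo2, an adhesion protein, was lower (log2 fold change -1.15, adjusted p = 0.0246). H2-D1 and H2-T23 encode MHC class I chains, which can share reads with related genes and are uncertain one by one. Of 13 genes described after ischemia, 10 passed the filter, and 1 of these (10%) was higher, near the share of all genes tested. It was Cd14, a coreceptor for LPS on myeloid cells (0.58, adjusted p = 0.00108).

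Genes of other brain cells were measured in the same libraries. Among 12 endothelial genes, 6 were lower and 0 higher (edgeR, also 0 higher at an unadjusted p under 0.05, with DESeq2 and with limma-voom), with a median log2 fold change of -1.04. Their sum was 640, 667 and 940 CPM in 4LPS samples, against 1301, 1052 and 1426 CPM in NS samples. Slco1c1, a thyroid hormone transporter of brain endothelium and astrocytes, was lower (log2 fold change -1.64, adjusted p = 0.00697). Itm2a (-1.45, adjusted p = 0.0139), the growth factor receptor Kdr (-0.90, adjusted p = 0.0188) and the adhesion molecule Pecam1 (-0.66, adjusted p = 0.0386) were lower too. Of the genes tested, none of 12 oligodendrocyte genes, 7 genes of their precursors and 10 neuronal genes passed with edgeR, DESeq2 or limma-voom, and at an unadjusted p under 0.05 2, 2 and 0 of them were lower and 0 higher. Their median log2 fold changes were -0.61, -0.52 and -0.50, also below 0. All 10 genes of pericytes and smooth muscle and all 8 ependymal genes had estimates below 0, with medians of -0.67 and -0.45. Of these, 0 passed with edgeR or limma-voom, while 4 and 3 were lower at an unadjusted p under 0.05 and 3 and 2 were lower with DESeq2. Among 5 fibroblast genes tested, 1 was lower (Col1a2). The sum of all 8 listed genes was 108, 24.3 and 48.3 CPM in 4LPS samples, against 312, 230.4 and 57.3 CPM in NS samples. These sums overlapped between the groups and had the same sample order as the choroid plexus sum. The 10 choroid plexus genes had a median of -2.14, but 0 passed with edgeR, also at an unadjusted p under 0.05, or with the other tools. Their sum in NS replicate 3 (1079 CPM) lay between those of 4LPS replicates 1 and 3 (3399 and 881 CPM). Among 9 genes of NK and T cells that were tested, 8 were higher, with a median log2 fold change of 4.05. The part of these cells in the levels of the astrocyte markers was not tested, and the fit with the choroid plexus term cannot decide it. Whether the fall was larger in astrocyte markers than in endothelial genes was not tested either.

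**Figure D4:**
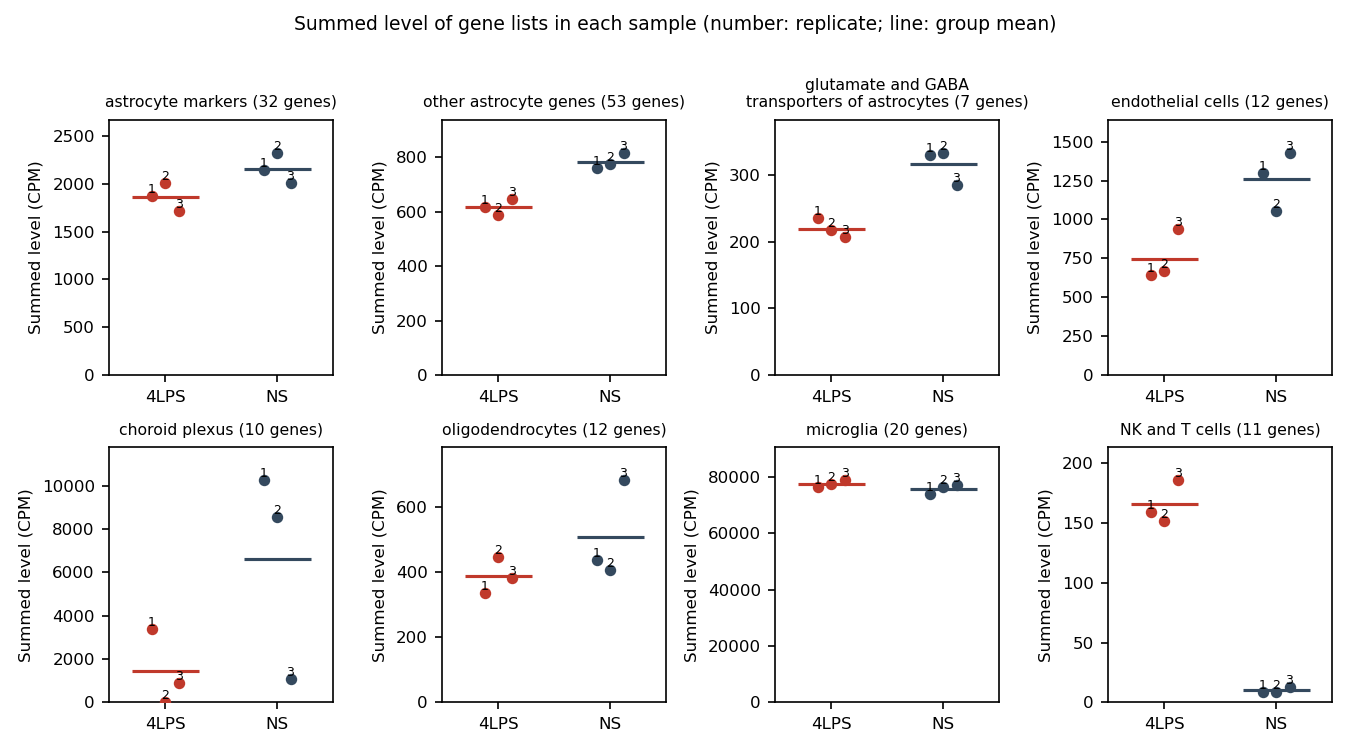
Summed level in CPM (y axis, from 0) of 8 gene lists in each sample, 4LPS left of NS, with the replicate number at each point and a line at the group mean. The sums of other astrocyte genes, of the glutamate and GABA transporters and of endothelial genes do not overlap between groups, the choroid plexus sum ranges from 18.01 to 3399 CPM in 4LPS and from 1079 to 10246 CPM in NS, and the microglia sum is nearly level.

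Length and position were not shared by the markers. Their effective lengths, derived from counts and FPKM, ranged from 0.258 kb for Mt3 to 7.13 kb for Slc4a4, with a median of 2.48 kb against 2.72 kb for all genes tested. They lie on 16 chromosomes, with 5 markers on chromosome 14 and 4 on chromosome 11. With a correction for gene length 17 were lower, among them Mt3 (log2 fold change -1.11, adjusted p = 0.0415) and not Ttyh1 (-0.48, adjusted p = 0.0560). Of all 13151 genes tested, 765 were lower with this correction.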

How the data were processed

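RNA-seq libraries of CD11b+ cells from cortex, isolated with magnetic beads, were compared between 3 4LPS and 3 NS samples, each a separate pool of 2 mice. The sample titles gave the group and the replicate number. The authors filtered paired reads and aligned them with HISAT2 2.0.4 and Bowtie2 2.2.5. Their methods name the build mm39, and the notes of the submitters list mm10 besides. They deposited expected counts and FPKM values from RSEM 1.2.8. These notes also name DESeq2 1.16.1. TPM values and a normalized signal (a count scaled by a size factor) that the authors deposited in the same table were read only to identify their units, and the authors' group means were not used. The gene annotation they used was not given in the sources used here. RSEM divides a read among the genes it matches.

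The expected counts were rounded, which altered 2.77% of the values, and tested with edgeR 4.0.16 under R 4.3.3 (TMM factors, filterByExpr, quasi-likelihood F-test, Benjamini-Hochberg adjustment over 13151 genes). Standard errors were derived from the F statistics (estimate over root F). CPM were computed with TMM factors. All columns of per-sample values were mapped. Alternatives used other factors, other filters, DESeq2 1.42.0, limma 3.58.1 on voom weights and on log2(FPKM + 1) or log2(FPKM + 0.1), a replicate block, a length correction, and each sample left out. Members, gene lists and the rule for named genes (markers with an adjusted p under 0.05, 6 defining markers, the 3 most abundant, and up to 4 genes with the smallest p and the most abundant one of each other list) were chosen with earlier results of these data known. Kcnj16, Sdc4, Lcn2, Vim, Serpina3n, Steap4 and Csf1r were named after their values were seen. Not every gene covered by this rule is named or given with values, and the genes of NK and T cells and of border macrophages are among those left out. Positions are those of GENCODE on GRCm39, matched by symbol for 32 of 32 markers, and promoters are from RefSeq on GRCm38.p6.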

Additional observations from a re-analysis of the deposited data

How the results depend on the processing

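The number of astrocyte markers that were lower was 13 to 20 over 15 alternatives that kept all samples, and no alternative called a marker higher. All 32 were tested in these, except 26 under the filter of 50 counts (15 lower) and 30 in both filtered fits on log2 FPKM (17 lower in each). It was 20 with DESeq2 and 16 with limma-voom, which called 960 of 14257 and 780 of 13151 genes lower. Under the filter of 50 counts 829 of 11002 genes were lower. With each sample left out in turn it was 7 to 17, and the median log2 fold change of the markers was -0.97 to -0.76. Plpp3, Atp1b2, Gpr37l1, Ntsr2, Aldoc and Htra1 were lower in each alternative in which they were tested, while the other 11 lost the threshold in 1 or more of the fits with a sample left out.

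On log2(FPKM + 1) the median over the markers was -0.67 with the filter and -0.65 without it, where the pseudocount shrinks genes of low level. Over all genes the split moved more. It was 1711 lower without a composition factor (906 higher, with the median of all genes at -0.11), 1486 lower and 823 higher on log2(FPKM + 1), 1454 and 813 on log2(FPKM + 0.1), 1335 and 818 on log2(FPKM + 1) without a filter, 2177 higher with the length correction and 2457 with the length correction and the replicate block, against 845 lower and 1308 higher with TMM factors. The fit with the choroid plexus term, which was chosen after seeing the data, gave 430 lower and 832 higher. With a sample left out there were 363 to 1215 lower and 781 to 1629 higher genes. The cause of these moves was not tested.

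Glul changed sign in several settings, to -0.014 with upper-quartile factors, -0.082 without a composition factor, -0.081 in each of the 3 fits on log2 FPKM and -0.064 with the choroid plexus term. With a sample left out, Glul ranged from -0.048 (without 4LPS replicate 2) to 0.080 (without NS replicate 2), below 0 also without NS replicate 1 (-0.025) or NS replicate 3 (-0.0038). S100b ranged from -0.49 (without NS replicate 2) to 0.10 (without NS replicate 3), above 0 also without 4LPS replicate 3 (0.05).

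Whether same-numbered samples were prepared together was not given in the sources used here. Their deviations correlated at 0.46, -0.26 and 0.05 across genes. Other pairs of a 4LPS and an NS sample ranged from -0.54 to 0.47, so with so few samples these values cannot decide it. With the replicate block 20 markers were lower, with Clu, Mt3 and Sox9 added, and 19 with the block and the length correction. Of 13151 genes, 1081 and 1024 were lower in these 2 fits. At this depth 13 of the 32 markers had 100 or more counts in each 4LPS sample, and Ntsr2 and Cldn10 had under 20.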
